A study of Mus musculus with 10 samples.

Results

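The genes described here are those of oxidative phosphorylation, 125 of the 41388 genes listed for whole ear skin. They were chosen by symbol. The 37 genes of the mitochondrial genome (symbols starting mt-) comprise 13 mRNAs, 2 rRNAs and 22 tRNAs. The 88 nuclear genes carry the names of respiratory subunits, with 40 in complex I (Nduf), 4 in complex II (Sdha to Sdhd), 8 in complex III (Uqcr), 19 in complex IV (Cox4 to Cox8) and 17 in complex V (Atp5). The rule leaves out cytochrome c, cytochrome c1 and Ndufab1, which are given further on with the assembly factors.

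The mice were of the C57Bl/6 strain, 10 in number with 1 library each, 4 labelled Littermate and 6 labelled Experimental. Littermates are labelled wild type. For the Experimental mice the genotype label reads NaV1.8+ Jak1F/F, whereas the series title and design text read NaV1.8+ Il4raF/F, so which of these genes was deleted is not settled here. NaV1.8 marks the sensory neurons for pain and itch, whose cell bodies lie in ganglia outside the ear. MC903 (calipotriol, related to vitamin D, which inflames skin) was put on the ears of all 10 mice each day for 12 days at 1 nM, per the series text, so there is no untreated skin. Age, sex, litter and batch are not given. Total RNA was depleted of ribosomal RNA, copied from random hexamers and read as single 50-base reads with no strand marking described. The p-values below set the difference between the groups against the spread between these libraries.

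Oxidative phosphorylation passes electrons from NADH and succinate through complexes I to IV to oxygen and uses the proton gradient so formed to make ATP in complex V. Its subunits come from both genomes. The mitochondrial genome is transcribed as long polycistronic RNAs from both strands by its own polymerase and cut into mRNAs, rRNAs and tRNAs, while the nuclear subunits are made as ordinary mRNAs and imported. Complex II alone is encoded wholly in the nucleus. Keratinocytes rely heavily on glycolysis, and skeletal muscle, of which the whole ear holds some, is rich in mitochondria.

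The log2 fold change of Experimental over Littermate skin had a median of -0.67 over the 7 mitochondrially encoded mRNAs that could be tested, all 7 negative, and a median of 0.01 over 82 nuclear subunits. The median over all 16830 genes tested was -0.00. No single gene of either set passed the test after adjustment over all genes. The 2 mRNAs with the lowest p, mt-Nd5 and mt-Cytb, lay lower in all 6 Experimental libraries than in any Littermate library. They were the 2 of 95 tested members to do so, beside 1.35% of all genes tested. mt-Co1, the most abundant of them, differed by -0.14 with an interval that includes 0.

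Only 95 of the 125 genes had enough counts to be tested: 7 mitochondrial mRNAs, both rRNAs, 4 tRNAs and 82 nuclear genes. Of the 13 mitochondrial mRNAs, 5 had no count in any library (mt-Co2, mt-Atp8, mt-Atp6, mt-Co3 and mt-Nd4l) and mt-Nd3 had 11 counts in all. These encode core subunits of complexes I, IV and V, so the mitochondrial side of complex V was not measured at all. A count of 0 is not evidence of absent RNA here. Every 50-base window of the mt-Co2 transcript also occurs, letter for letter, in other annotated transcripts of the nuclear genome, as do 99.9% of the windows of mt-Co3, 99.5% of mt-Atp6, 98.8% of mt-Nd4l and 98.0% of mt-Nd3. The share was 62.2% for mt-Nd4, 51.1% for mt-Co1, 8.2% for mt-Nd2, 7.6% for mt-Nd5 and 1.0% for mt-Rnr2. It was 0.0% for mt-Nd1, mt-Nd6, mt-Cytb and mt-Rnr1. The handling of reads with several matches is not given in the sources used.

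The fully copied genes have their copies side by side on chromosome 1, within chr1:24611535-24616197 (mm10), in the genes Gm28661, Gm10925, Gm28437, Gm28438 and Gm10222. The same block holds Gm28439, a copy of the first 876 bases of mt-Nd4, and Gm29216, a copy of the last 483 bases of mt-Co1. These copies were nearly empty too: Gm28661 had 1 count over the 10 libraries, Gm28437 had 3 and Gm28439 had 0. mt-Atp8 was the exception, with no count although none of its windows has an exact copy among the annotated transcripts. Its place in the block, between Gm10925 and Gm28661, holds no annotated gene, and the genome sequence there was not analysed here. Windows of 4 genes show what a read could and could not tell apart. The windows of mt-Co2 and mt-Co3 are identical to those of their copies, and these mitochondrial genes have no counts. The windows of mt-Nd5 and mt-Cytb differ from their copies at the capital letters, and both genes were counted. mt-Nd4 and mt-Co1, with 62.2% and 51.1% of windows copied exactly, were counted as well. Whether the copies bear on the counts was not tested. Sequences run 5′ to 3′ along each transcript, from GENCODE M21 (GRCm38). The windows lie at chrM:7329-7378 for mt-Co2, chrM:8974-9023 for mt-Co3, chrM:12899-12948 for mt-Nd5 and chrM:14692-14741 for mt-Cytb, all on the plus strand.
mt-Co2: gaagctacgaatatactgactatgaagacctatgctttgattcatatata
Gm28661: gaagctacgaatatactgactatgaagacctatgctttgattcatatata
mt-Co3: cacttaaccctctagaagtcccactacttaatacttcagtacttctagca
Gm28437: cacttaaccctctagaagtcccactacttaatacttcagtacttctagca
mt-Nd5: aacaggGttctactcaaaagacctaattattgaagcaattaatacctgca
Gm4076: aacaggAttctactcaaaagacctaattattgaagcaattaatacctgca
mt-Cytb: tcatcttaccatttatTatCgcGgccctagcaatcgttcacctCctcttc
Gm11410: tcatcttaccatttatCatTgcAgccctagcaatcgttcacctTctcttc

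The fold changes of the counted mRNAs are given here beside their share of copied windows. mt-Nd4, with 62.2% of windows copied, had a log2 fold change of -0.77, and mt-Co1, with 51.1%, had -0.14. mt-Nd2, with 8.2%, had -0.67, and mt-Nd5, with 7.6%, had -0.86. The 3 mRNAs with no window copied in an annotated transcript (mt-Nd1, mt-Nd6 and mt-Cytb) had -0.47, -0.79 and -0.63. Whether copied windows bear on the fold changes was not tested.

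**Figure D1:**
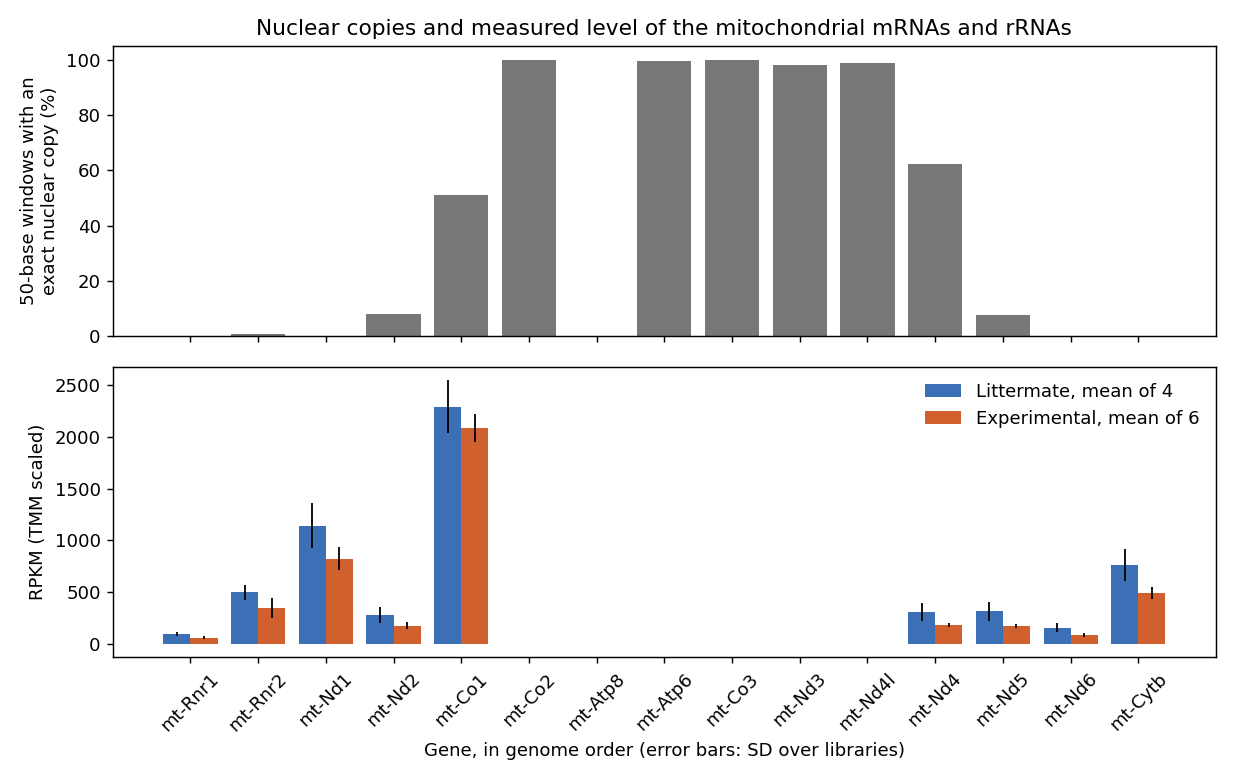
Upper bars give the percent of 50-base windows of each mitochondrial mRNA or rRNA that occur exactly in another annotated transcript; lower bars give the mean RPKM of 4 Littermate (blue) and 6 Experimental (orange) libraries, with SD. The genes with about 98.0% or more copied windows, and mt-Atp8, stand at or near 0 RPKM, and mt-Co1 stands highest at 2292 and 2083.

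Per length, mt-Co1 (catalytic subunit of cytochrome c oxidase, complex IV) was the highest of all 95 tested members at 2292 ± 257 RPKM in Littermates (reads per kilobase, scaled for depth; SD, n = 4) and 2083 ± 136 RPKM in Experimental mice (SD, n = 6). mt-Nd1, a membrane subunit of complex I, followed at 1143 ± 220 and 824 ± 107 RPKM. mt-Cytb, the cytochrome b of complex III, stood at 760 ± 156 and 492 ± 54.5 RPKM. The complex I subunits mt-Nd5, mt-Nd4 and mt-Nd2 lay close together in Littermates, at 315 ± 90.3, 307 ± 86.8 and 279 ± 73.2 RPKM, differences smaller than their spread. mt-Nd6, the mRNA read from the opposite strand, was lowest at 156 ± 42.9 and 89.9 ± 17.8 RPKM. RPKM divides by the full length, copied windows included. Counted per 1000 windows without a copy, the Littermate means put mt-Nd4 at 842.0 CPM, above mt-Cytb at 794.4 and below mt-Nd1 at 1204, with mt-Co1 still first at 4844. That order assumes that no read from a copied window was counted, and the handling of such reads is not given.

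Normalised CPM (counts scaled to 1e6 per library with TMM factors) per library show how the mRNAs differed between the groups. For mt-Nd5, the 4 Littermate libraries held 614.7, 375.2, 536.1 and 770.8 CPM in the order of their numbers, and the Experimental libraries ran from 248.3 through a median of 318.2 to 349.5. The groups did not overlap, and Littermate 2 was the lowest of its group. The log2 fold change was -0.86 with a standard error of 0.16 (edgeR, adjusted p = 0.0833).

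For mt-Cytb, Littermates held 935.1, 646.1, 829.3 and 1069 CPM and Experimental libraries 464.8 at lowest, 575.1 at the median and 633.9 at most. Here too no Experimental library reached a Littermate one, though Littermate 2 lay close to the highest of them. The log2 fold change was -0.63 with a standard error of 0.12 (edgeR, adjusted p = 0.0833). Over all genes tested, 1.35% had every Experimental library below every Littermate library and 0.761% the reverse. Among the 95 tested members mt-Nd5 and mt-Cytb were the 2 in the first class, with 0 in the second.

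For mt-Nd4, Littermates held 443.1, 267.8, 421.3 and 558.6 CPM against 222.3, 239.4 and 295.7 (lowest, median and highest Experimental). Experimental 3 was the 1 library to overlap, above Littermate 2. Its log2 fold change was -0.77 with a standard error of 0.16 (edgeR, adjusted p = 0.0860).

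mt-Nd6 lies on the other strand, and with no strand marking described its reads cannot be told from RNA antisense to it. Littermates held 92.72, 58.46, 66.22 and 106.0 CPM against 38.45, 43.32 and 60.12 in Experimental libraries. Its log2 fold change was -0.79 with a standard error of 0.18 (edgeR, adjusted p = 0.125).

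The complex I genes nearest the promoter end of the heavy-strand transcript differed in the same direction. For mt-Nd1, Littermates held 1311, 846.5, 999.7 and 1216 CPM against 656.7, 784.1 and 951.7, and the groups overlapped through Experimental 5. The log2 fold change was -0.47 with a standard error of 0.13 (edgeR, adjusted p = 0.162). For mt-Nd2, Littermates held 335.0, 205.2, 248.8 and 370.1 CPM against 141.0, 182.3 and 233.2, and 4 of 6 Experimental libraries lay below all Littermates. Its log2 fold change was -0.67 with a standard error of 0.18 (edgeR, adjusted p = 0.205).

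mt-Co1 stood apart from the other mRNAs in size of difference. Littermates held 3820, 3119, 3934 and 3290 CPM and Experimental libraries 3043, 3156 and 3634. Only 1 Experimental library lay below all Littermates. Its log2 fold change of -0.14 had a 95% interval of -0.35 to 0.07 (edgeR, adjusted p = 0.614).

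**Figure D2:**
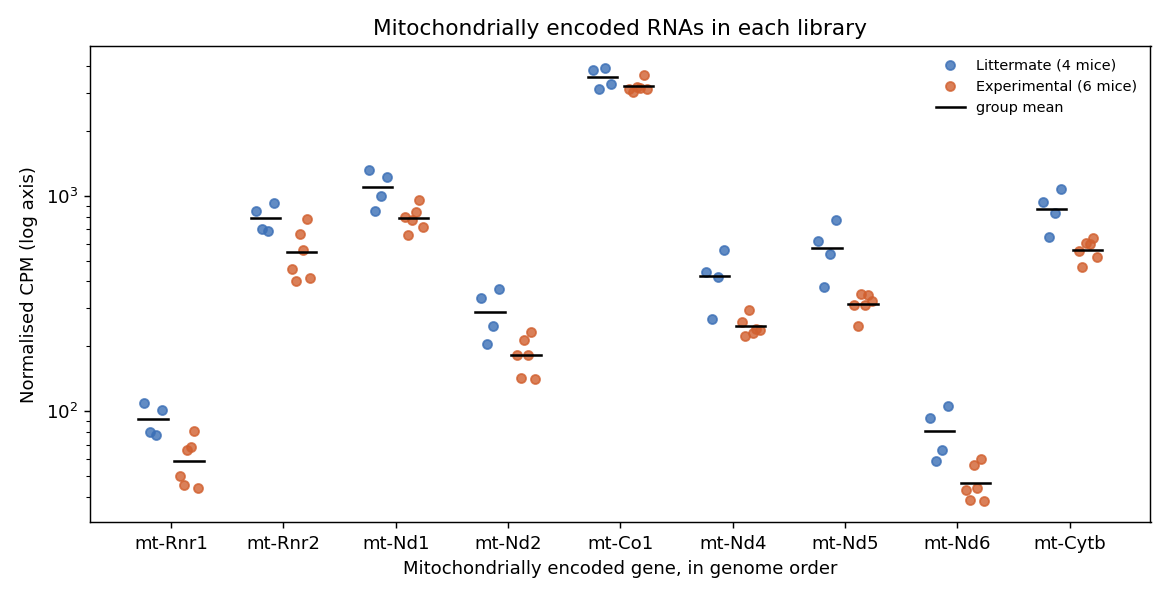
Normalised CPM on a log axis for 2 rRNAs and 7 mRNAs of the mitochondrial genome, 1 point per library (blue, 4 Littermate; orange, 6 Experimental), with black lines at the group means. mt-Nd5 and mt-Cytb show no overlap of the groups, and for mt-Co1 the group means of 3541 and 3218 CPM lie close.

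The share of mt-Co1 among the mitochondrial mRNA counts therefore differed between groups, a within-library measure that needs no scaling. It was 50.6%, 56.5%, 55.9% and 44.6% in Littermates and ran from 58.2% to 63.2% in Experimental libraries, with no overlap. The log2 ratio of mt-Nd5 to mt-Co1 counts, a pair picked after its values were seen, ran from -3.06 to -2.09 in Littermates and from -3.62 to -3.19 in Experimental libraries, also with no overlap. These are descriptions with no test.

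The rRNAs of the mitochondrial ribosome had negative values too, short of the adjusted threshold. mt-Rnr2, the large-subunit rRNA, held 845.8, 704.3, 689.0 and 922.3 CPM in Littermates against 403.4, 508.2 and 783.6 in Experimental libraries, a log2 fold change of -0.53 with a standard error of 0.18 (edgeR, adjusted p = 0.293). mt-Rnr1, the small-subunit rRNA, held 108.7, 80.26, 77.93 and 101.5 CPM against 43.86, 57.83 and 80.72, a log2 fold change of -0.65 with a standard error of 0.18 (edgeR, adjusted p = 0.195). In both, 5 of 6 Experimental libraries lay below all Littermates and Experimental 5 did not. Because rRNA was removed before sequencing, these are levels after depletion, and their rank against the mRNAs says nothing of their abundance in the tissue.

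Of the 22 tRNAs, 4 were tested, mt-Ta, mt-Tc, mt-Te and mt-Tp, all annotated on the minus strand like mt-Nd6. Each of the other 18 held 98 counts or fewer, summed over the 10 libraries. Mature tRNAs, at a median length of 68.5 bases, are poorly caught by such libraries, and reads of a flanking precursor that overlap them cannot be set aside. On the log2 scale mt-Ta (alanine) differed by -0.69 (edgeR, adjusted p = 0.250) and mt-Te (glutamate), with 155 counts in all, by -1.16 (adjusted p = 0.260). mt-Tc (cysteine) had -0.47 with an interval from -1.09 to 0.15, and mt-Tp (proline) -0.00 from -0.52 to 0.51. No difference in mt-Tp was detectable at this depth.

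By the adjusted test none of the 13 mitochondrial and none of the 82 nuclear genes was called, against 0.0178% of all genes (3 of 16830; edgeR, threshold 0.05). At an unadjusted p under 0.05, 11.8% of all genes passed, 8.1% lower and 3.65% higher. Among the mRNAs 6 of 7 passed, all lower, with mt-Co1 the one that did not. Both rRNAs and 2 of 4 tRNAs passed, lower as well, whereas 1 of 82 nuclear genes did. The mitochondrial genes are cut from long RNAs that they share, so their passes are not independent of each other. DESeq2 on the same counts called 1.52% of genes (231 of 15203), among them 7 mitochondrial genes (mt-Nd1, mt-Nd2, mt-Nd4, mt-Nd5, mt-Nd6, mt-Cytb and mt-Rnr1, all lower) and 0 nuclear members. Its adjusted p was 0.000318 for mt-Nd5 and 0.00183 for mt-Cytb. limma voom with sample quality weights called 0.357% of genes, mt-Nd4, mt-Nd5 and mt-Cytb among them, and edgeR without a filter on low counts 0.264%, with mt-Cytb.

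One Littermate library decided much of this. Without Littermate 2, in which all 7 mRNAs were lowest of the group, edgeR called 2.0% of genes (342), and among them mt-Nd1, mt-Nd4, mt-Nd5, mt-Nd6 and mt-Cytb, with adjusted p-values between 0.00268 and 0.0323. The median over the 7 mRNAs was then -0.80. Without Littermate 2 and Experimental 6 together, 3.35% were called, with mt-Nd2 as a sixth. Without Experimental 6 alone 0.168% of genes were called, none of them a member. Of the fits with 1 library left out, the median was nearest 0 without Littermate 4, at -0.52, and without Littermate 1, at -0.59. The direction of each of the 7 mRNAs and both rRNAs was the same in all 24 alternative fits. Log2 fold changes ran from -1.03 to -0.63 for mt-Nd5, from -0.75 to -0.49 for mt-Cytb and from -0.21 to -0.08 for mt-Co1.

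The nuclear subunits stayed close to no difference in every complex, with 76 of 82 log2 fold changes within 0.20 of 0, 39 negative and 43 positive. All genes tested had 12575 of 16830 within that band. The median was -0.00 in complex I, -0.03 in complex II, 0.04 in complex III, -0.03 in complex IV and 0.02 in complex V. The widest 95% intervals over the nuclear genes reached from -0.95 to 0.82, both in complex IV. Those of complex I stayed between -0.52 and 0.51.

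**Figure D3:**
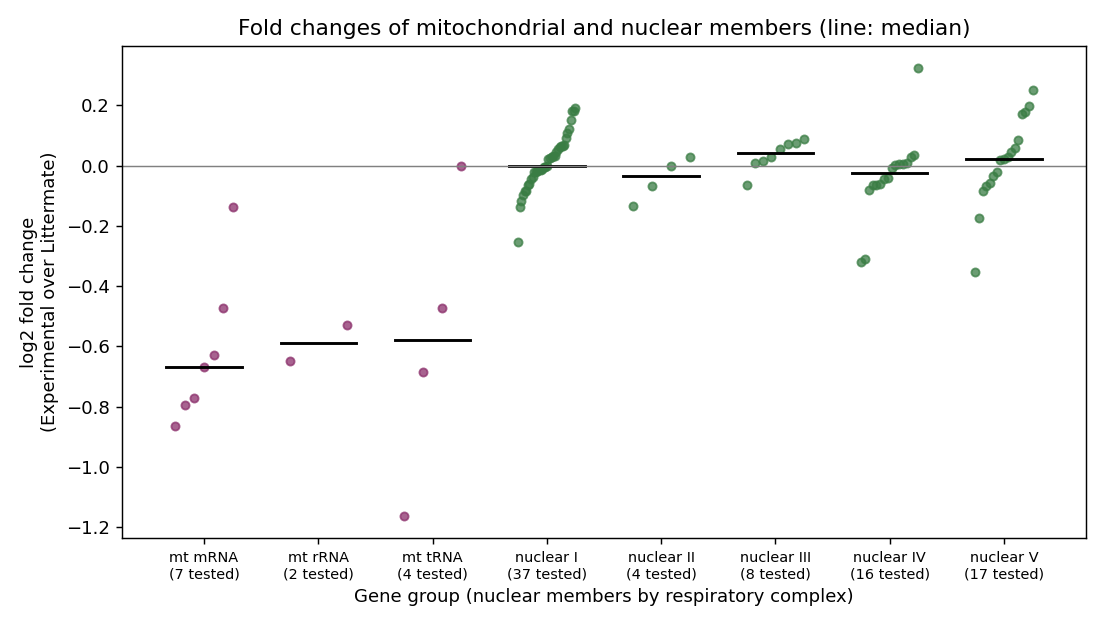
Each point is the log2 fold change (Experimental over Littermate, edgeR) of one tested gene, grouped by genome and, for nuclear genes, by complex, with a black line at the median. Mitochondrial mRNAs lie between -0.86 and -0.14, and nuclear genes between -0.35 and 0.32 around medians close to 0.

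In complex I, which oxidises NADH, nuclear core subunits of the arm that holds the flavin and iron-sulphur clusters (Ndufs1, Ndufs3, Ndufs7, Ndufs8, Ndufv1 and Ndufv2) had log2 fold changes from -0.04 to 0.09. Among the accessory subunits Ndufc2 had 0.18 and Ndufs5 0.19, with intervals from -0.04 to 0.40 and from -0.08 to 0.46. Ndufa4, now counted with complex IV despite its name, was the highest nuclear member per length, at 387 ± 69.5 RPKM in Littermates (SD, n = 4) and 430 ± 30.5 in Experimental mice (SD, n = 6). It had 0.15 on the log2 scale. The lowest p in the complex belonged to Ndufa4l2, a hypoxia-induced relative of Ndufa4. Littermates held 69.67, 45.58, 49.40 and 49.71 CPM against 37.26, 44.78 and 51.81 in Experimental libraries. Littermate 1 alone was high and the groups overlapped, and the difference of -0.26 on the log2 scale had an adjusted p of 0.440 in edgeR's test.

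In complex II, which takes electrons from succinate, Sdhb (the iron-sulphur subunit) had -0.14 (interval -0.34 to 0.07). Sdha, the flavoprotein, had -0.07 and Sdhd, a membrane anchor and the highest of the 4 at 64.0 RPKM, 0.03. In complex III the Rieske protein Uqcrfs1 had 0.09, the core protein Uqcrc2 0.07 and the small subunit Uqcr11 -0.06. Uqcr10 was highest of the nuclear members of the complex at 200 ± 32.4 and 201 ± 12.1 RPKM, with 0.01 from -0.19 to 0.21. The sign of Sdhd, Uqcrfs1, Uqcrc2, Uqcr11 and Uqcr10 turned in at least 1 of 24 alternative fits, whereas Sdhb and Sdha kept theirs.

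In complex V, the ATP synthase, Atp5a1 and Atp5b, which form the catalytic head, were the most counted nuclear members. Atp5a1 held 875 ± 101 CPM in Littermates (SD, n = 4) and 885 ± 43.5 in Experimental mice (SD, n = 6), with 0.02 on the log2 scale. Atp5l, the membrane subunit g, was the nuclear gene past an unadjusted p of 0.05. Littermates held 5.155, 8.414, 7.097 and 4.823 CPM against 4.363, 4.912 and 5.747. Littermates 2 and 3 were high and the other 2 lay within the Experimental range. The log2 value was -0.35 (interval -0.69 to -0.02; edgeR, adjusted p = 0.392). The stalk subunits Atp5d and Atp5e had -0.17 and 0.20, in opposite directions, with intervals from -0.35 to 0.00 and from -0.02 to 0.41.

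Complex IV holds subunits that come as tissue isoforms. Cox6a2, Cox7a1 and Cox8b are the heart and skeletal muscle forms, and Cox6a1, Cox7a2 and Cox8a their counterparts in most tissues. The summed level of 10 skeletal muscle markers (such as Acta1 and Myh1) was 3456, 5313, 7544 and 4535 CPM in Littermates and ran from 3750 to 5175 CPM in Experimental libraries, with 4 of 10 markers at an unadjusted p under 0.05, all lower (8.1% over all genes), and none at 0. Cox6a2 held 28.67, 36.44, 55.93 and 27.62 CPM in Littermates against 27.90, 30.14 and 31.85. It was high in Littermate 3, the library with the most muscle marker RNA. Its log2 fold change was -0.32 from -0.68 to 0.04 (edgeR, adjusted p = 0.483).

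Cox7a1 held 9.686, 28.39, 23.85 and 12.21 CPM against 12.30, 13.88 and 20.77, a log2 fold change of -0.31 from -0.95 to 0.33. Cox8b held 13.59, 31.24, 27.32 and 14.78 CPM against 15.57, 20.14 and 27.57, a log2 fold change of -0.08 from -0.63 to 0.46. Both were high in Littermates 2 and 3 and low in Littermates 1 and 4, so these genes spread more within the Littermates than between the groups. In bulk tissue fewer muscle cells in a sample and less RNA per cell cannot be told apart. The forms of most tissues were even, with -0.06 for Cox6a1 (198 RPKM), 0.03 for Cox7a2 (107 RPKM) and -0.04 for Cox8a (263 RPKM). Cox6b1, close to Cox8a in level at 267 ± 33.6 and 265 ± 20.1 RPKM, had -0.01.

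**Figure D4:**
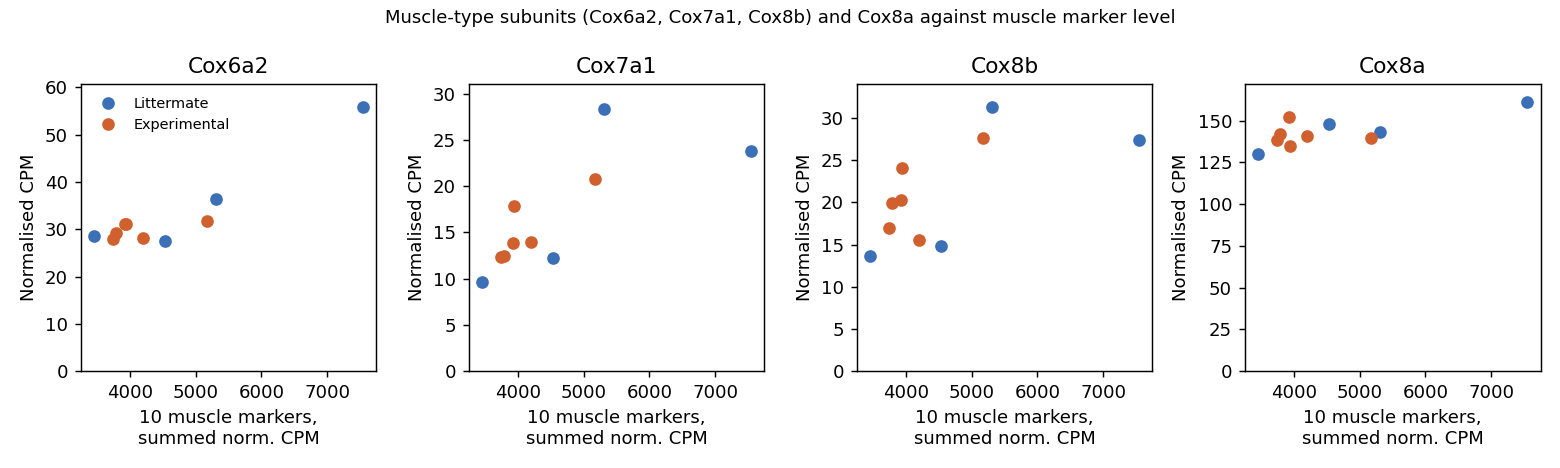
Normalised CPM of 3 muscle-type subunits and of Cox8a, 1 panel each, against the summed CPM of 10 skeletal muscle markers, 1 point per library (blue, Littermate; orange, Experimental). Cox6a2 reaches 55.93 CPM in the library with 7544 CPM of muscle markers, and Cox7a1 and Cox8b are highest in the library with 5313.

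The Cox isoforms for low oxygen or for testis were scarce. Cox4i2, the isoform of lung and of low oxygen, stood at 5.21 RPKM against 150 RPKM for Cox4i1, and their log2 fold changes were 0.04 and 0.01. Cox6b2, known from testis, stood at 1.11 RPKM with a log2 fold change of 0.32 from -0.17 to 0.82. The 6 nuclear genes that were not tested (Cox7b2, Cox8c, Cox6c2, Ndufs6b, Ndufb4c and Ndufa11b) held 24 counts or fewer each. The testis markers Prm1, Prm2 and Tnp1 summed to at most 0.280 CPM in any library.

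Windows of nuclear members also occur exactly in transcripts of other genes, and the kind of these matches was not examined. Whether they bear on the levels was not tested. Among the 82 tested, 24 had an exact copy in another annotated transcript for at least 10% of their windows, led by Atp5o at 50.3% and Atp5h at 47.9%. The median level was 25.9 RPKM over the 23 genes between 10% and 50% and 52.0 RPKM over the 58 genes under 10%. Their median log2 fold changes were 0.01 and -0.00.

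Summed over a library, the mitochondrial mRNAs took 0.682% ± 0.089 of all Littermate counts (SD, n = 4) and 0.539% ± 0.042 of the Experimental counts (SD, n = 6). In normalised CPM the sums were 7553, 5518, 7036 and 7381 in Littermates and ran from 4816 to 6100 in Experimental libraries, where 5 of 6 lay below all Littermates. The nuclear members summed to 6957, 8620, 8691 and 7118 CPM in Littermates and to between 7413 and 8112 in Experimental libraries. Their group means of 7846 ± 937 and 7822 ± 243 CPM were nearly the same, but the Littermates fell 2 above and 2 below the whole Experimental range. The nuclear sums of complexes I, II, III, IV and V were each higher in Littermates 2 and 3 than in Littermates 1 and 4. Littermates 1 and 4 had high mitochondrial and low nuclear sums, and Littermate 2 the reverse.

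**Figure D5:**
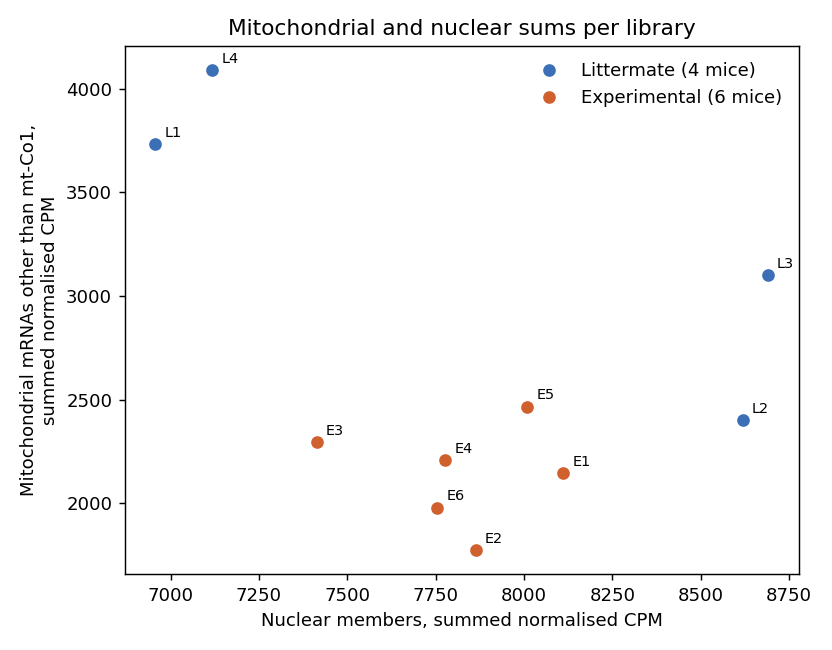
Summed normalised CPM of the mitochondrial mRNAs other than mt-Co1 against that of the 88 nuclear genes, 1 labelled point per library (L, Littermate; E, Experimental). On the horizontal axis (nuclear sum) the Experimental libraries lie at 7413 to 8112 CPM with 2 Littermates to each side. On the vertical axis they lie low, at 1773 to 2466 CPM, with 3 Littermates above them at 3102 or more and L2 among them at 2399.

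The log2 ratio of mitochondrial to nuclear counts in a library joins both. It was 0.12, -0.64, -0.30 and 0.05 in Littermates and ran from -0.71 to -0.39 in Experimental libraries, so Littermate 2 lay within the Experimental range. The means were -0.19 ± 0.35 (SD, n = 4) and -0.55 ± 0.12 (SD, n = 6), a difference of -0.35. Without mt-Co1 the difference was -0.62, and with medians of log2 CPM in place of sums it was -0.75. By complex it was -0.63 for complex I, -0.66 for complex III and -0.11 for complex IV, where mt-Co1 is the one mitochondrial mRNA counted. No test was made of the ratio.

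Other features of the libraries are given beside these sums, and their part in the result was not tested. Fibroblast markers (6 genes, such as Col1a1) summed to 12950 and 13460 CPM in Littermates 1 and 4, to 9227 and 8000 in Littermates 2 and 3, and ran from 8125 to 10580 CPM in Experimental libraries. Of 9 genes that respond to tissue handling, such as Fos and Jun, 5 were lower at an unadjusted p under 0.05 (8.1% over all genes), and their sums ran from 704.6 to 804.5 CPM and from 627.3 to 766.1 CPM. Y-linked genes summed to 228.5 to 300.9 CPM and 281.8 to 339.0 CPM, so every library held them. With that sum as a covariate the medians were -0.49 for the mitochondrial mRNAs and -0.10 for the nuclear genes. The mitochondrial mRNAs are poor in G and C (median 37.1% against 50.3% for nuclear members), and with a GC correction their median was -0.79. Keratinocyte markers, at 33450 to 37690 and 29890 to 36920 CPM, overlapped between the groups and marked the tissue as skin. Total counts were 12865459 to 14324433 in Littermates and 11520348 to 41935183 in Experimental libraries.

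The factors that make and keep mitochondrial RNA showed no call. Among 20 genes of mitochondrial DNA transcription and upkeep, 0 were called and 1 passed an unadjusted p of 0.05 (5.0%, beside 11.8% of all genes). That was Mterf3, a factor of mitochondrial gene expression, at 13.8 ± 1.23 CPM in Littermates (SD, n = 4) and 16.6 ± 1.53 in Experimental mice (SD, n = 6). It differed by 0.27 on the log2 scale (edgeR, adjusted p = 0.305). Tfam, which packages and activates the mitochondrial genome, had 0.14 and Polrmt, the mitochondrial RNA polymerase, -0.14. Among 21 genes of RNA processing and stability, 0 were called, and 19 of 21 log2 fold changes were positive (8344 of 16830 over all genes), with a median of 0.08. Pde12, which trims poly(A) tails in mitochondria, had 0.16 (edgeR, adjusted p = 0.408), and Lrpprc, which stabilises mitochondrial mRNAs, had 0.08.

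Of 10 nuclear regulators of respiratory genes, 0 were called and 3 were lower at an unadjusted p under 0.05, as were 8.1% of all genes. Pprc1, a coactivator of the PGC-1 family, held 47.9, 36.8, 49.1 and 59.7 CPM in Littermates against 35.6, 37.6 and 44.4 in Experimental libraries. Littermate 2 was the lowest of its group, as for the mitochondrial mRNAs. The log2 fold change was -0.33 (edgeR, adjusted p = 0.255), and without Littermate 2 it was called, at -0.44 (adjusted p = 0.0267). Its relative Ppargc1b had -0.39 (adjusted p = 0.255) and Yy1 -0.25 (adjusted p = 0.358). The activators Nrf1 and Gabpa had 0.09 and 0.11.

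The nuclear promoters were searched for the motifs of such factors. Whether these motifs bear on the nuclear sums of the libraries was not tested. RefSeq promoters (GRCm38.p6, 250 bases before to 50 after the start) matched 68 of the 88 nuclear members. The core of the NRF1 motif, GCATGCG, was found on either strand in 11 of 68 (16.2%) against 4.01% of the 27025 genes with a promoter in that table. The ETS motif CCGGAAG, bound by Gabpa, was found in 23.5% against 9.93%, and the core of the YY1 motif, ATGGCGG, in 14.7% against 4.69%. TGACGTC, most of the cyclic AMP response element, was found in 8.82% against 3.6%, and TATAAA in 10.3% against 15.7%. Both strands were searched for each. The median GC content was 57.3% in these promoters and 52.7% in all, and the shares were not corrected for it. A match describes letters and does not show binding. One NRF1 match each from complexes I, II, IV and V is printed, with the motif in capitals; where it overlaps its own reverse complement the capitals cover both. The stretches are chr17:56717683-56717732 (plus strand) for Ndufa11, chr4:140961197-140961246 (plus) for Sdhb, chr5:115349090-115349139 (minus) for Cox6a1 and chr5:108434419-108434468 (minus) for Atp5k.
Ndufa11: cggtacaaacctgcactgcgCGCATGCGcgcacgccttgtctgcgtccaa
Sdhb: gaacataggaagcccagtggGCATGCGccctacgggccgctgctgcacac
Cox6a1: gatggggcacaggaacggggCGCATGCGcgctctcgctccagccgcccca
Atp5k: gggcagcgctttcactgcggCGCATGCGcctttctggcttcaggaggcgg
The log2 fold changes of these genes were -0.01, -0.14, -0.06 and -0.08, within the range of the other nuclear members.

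The proteins that assemble the complexes and the mobile carriers were likewise uncalled. Among 16 genes of complex I assembly and its acyl carrier, Acad9 had 0.18 (edgeR, adjusted p = 0.344) and Ndufab1, the acyl carrier, -0.02. Sdhaf3 led the 4 complex II factors by p, with 0.22, and Lyrm7 the 7 genes of complex III assembly with 0.33, where Cyc1, the cytochrome c1, had -0.05. In complex IV assembly (19 of 21 tested) Cox15, which makes its heme, had -0.20 (adjusted p = 0.402), and Cycs, the cytochrome c, 0.00. Atpaf1 had -0.20 among 3 factors of ATP synthase assembly and Coq10a -0.16 among 13 genes of coenzyme Q.

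Neighbouring pathways gave small values in both directions, beside 8486 negative and 8344 positive values over all 16830 genes tested. In the tricarboxylic acid cycle 13 of 16 log2 fold changes were negative with a median of -0.06, and Mdh2, the malate dehydrogenase, had -0.21 (edgeR, adjusted p = 0.254). In glycolysis 11 of 14 were negative with a median of -0.12, and Gapdh had -0.23 (adjusted p = 0.372). Tomm40, the import pore of the outer membrane, had -0.17 (adjusted p = 0.399) among 13 genes of import and carriers. Of 11 mitochondrial chaperones and proteases, 10 were positive with a median of 0.06, and Clpx had 0.12. At an unadjusted p under 0.05, the cycle, glycolysis and import had 1 gene each (6.25%, 7.14% and 7.69%), all lower, and the chaperones 0. Over all genes 8.1% were lower at that p, so these shares do not exceed the background.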

How the data were processed

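The tools were STAR 2.0.4b, featureCounts 1.4.5 and Subread, on mm10, per the submitters' processing notes. For annotation release, strand setting and reads with several matches, nothing is given in the sources used here. The authors' deposited read count per gene covers 41388 Ensembl genes. The deposited CPM is that count scaled to 1e6 per library, and the deposited RPKM is the CPM per kilobase. The counts entered the tests, and printed CPM and RPKM were computed from them with TMM factors, which ran from 0.984 to 1.02. A symbol was found for 97.3% of identifiers.

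All genes were tested together with edgeR 4.0.16 (filterByExpr, robust quasi-likelihood test, two-sided, group as the only term), with Benjamini-Hochberg adjustment over 16830 genes. Errors are SD over libraries, intervals are 95%, and a standard error is that of the log2 fold change. At these depths 3 counts are worth 0.0715 to 0.260 CPM, with 12.8% biological variation (edgeR's common coefficient). The fit was tested on simulated counts. Alternatives were other size factors and filters, DESeq2 1.42.0, limma 3.58.1 (voom), a replicate block, a Y-linked covariate, GC and length corrections, and libraries left out. The ratio without mt-Co1 was added after seeing the data. Copies were found as exact 50-base windows and with BLAST 2.17.0 among GENCODE M21 transcripts, which place all 37 mitochondrial genes at the coordinates of the files.

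The members, the 13 pathway lists and the 12 marker lists were chosen with earlier results of these data known. The rule for named genes takes all mitochondrial mRNAs and rRNAs, up to 4 called genes per complex filled to 3 by lowest p, the Cox4, Cox6a, Cox7a and Cox8 isoform pairs, the highest RPKM per complex, and up to 3 called genes per pathway list filled to 1. Genes named beyond it were added by role or after their values were seen. The listed symbols Coa1 and Prorp matched no gene.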

Additional observations from a re-analysis of the deposited data

Results flagged for a closer look

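mt-Co1 in the Experimental group was picked out because 1 library stood far from the others. Experimental 5 held 3630 CPM, and the other 5 lay between 3040 and 3200 CPM, so that the gap was 0.736 of the whole range of the group. The critical value is the 95% one, so that chance marks about 1 in 20 groups, and 1 was marked of 100 examined (47 named genes, 2 sums and 1 ratio, each in both groups). Experimental 5 also held the most mt-Nd1, mt-Nd2, mt-Nd6, mt-Cytb, mt-Rnr1 and mt-Rnr2 RNA of the Experimental libraries, and Experimental 3 the most mt-Nd4 and mt-Nd5 RNA. The cause was not tested.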

How the results depend on the processing

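The 5 results for the whole comparison were the counts of genes called, of mitochondrial and of nuclear members called, and the 2 medians. Nuclear members called stayed at 0 in every fit run, and neither median moved by more than the spread between replicates. Genes called over all genes rose from 3 to 78 without a filter on low counts, 231 with DESeq2, 60 with voom quality weights and 565 without Littermate 2 and Experimental 6 together, and mitochondrial members called rose from 0 to 1, 7, 3 and 6. With 1 library left out, genes called ran from 3 to 342 (342 without Littermate 2, 28 without Experimental 6 and 8 without Littermate 3), and mitochondrial members from 0 to 5. With the replicate block, 67 genes (0.398%) and 2 mitochondrial members were called, mt-Nd5 (adjusted p = 0.0335) and mt-Cytb (0.0428). The same-numbered libraries share only a number: their deviations correlated at 0.03, -0.02, 0.09 and -0.02. The ratio difference of -0.35 became -0.75 with medians in place of sums and -0.62 without mt-Co1.

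Signs turned for nuclear genes close to 0, none of them called. With the Y-linked covariate Ndufc2 became -0.0069, Ndufa4 -0.041, Sdhd -0.040, Uqcrfs1 -0.019, Uqcrc2 -0.049, Uqcr10 -0.098, Atp5e -0.025, Cox4i1 -0.051, Cox4i2 -0.099, Cox6a1 0.022 and Cox7a2 -0.11. With the GC correction Uqcr11 became 0.068, Cox6b1 0.0054, Cox6a1 0.11 and Cox8a 0.078. Without Littermate 2 and Experimental 6 together Uqcr11 became 0.048, Cox6b1 0.067 and Cox8b 0.22. Without the 2 deepest libraries Uqcr11 became 0.0038, Cox6b1 0.057 and Cox8b 0.0065. With total counts only Cox6b1 became 0.0088. Without a filter on low counts Cox6b1 became 0.001. With the replicate block Uqcr10 became -0.0065. With 1 library left out the ranges crossed 0 for Sdhd -0.051 to 0.095, Uqcr10 -0.052 to 0.090, Atp5a1 -0.052 to 0.074, Cox4i1 -0.077 to 0.077, Uqcr11 -0.15 to 0.053, Cox6b1 -0.054 to 0.066, Cox8b -0.24 to 0.14, Cox4i2 -0.075 to 0.29, Cox8a -0.085 to 0.014 and Cox7a2 -0.048 to 0.13. The causes were not tested.

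The depth limits the scarce members. A gene needs 0.0715 to 0.260 CPM to reach 3 counts, and the 6 mitochondrial mRNAs that were not tested held 0 counts (5 genes) or 11 in all (mt-Nd3).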
